A study of Mus musculus with 24 samples.

Results

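Broad acetylated domains are the widest stretches of H3K27ac, a histone acetylation of active promoters and enhancers, in limb buds of control mouse embryos, taken at E12.5 and at E11.5 (days of gestation). A domain was defined as any peak of at least 5000 bp in the E12.5 or the E11.5 control list, merged with every other such peak that shared 1 bp or more with it. The rule found 1103 domains among the 42617 merged acetylated regions of both controls, and 41516 regions held no such peak. Some merged regions hold more than 1 domain. The domains covered 8.30 Mb, with lengths between 5000 and 67733 bp and a median of 6363 bp. Both controls supplied 336 of them, the E12.5 control alone 742 and the E11.5 control alone 25. The domains were selected on their peak width in the controls, so those widths are given as a description.

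The study asked how histone marks at the onset of cartilage formation depend on Sox9, the transcription factor required for chondrocyte differentiation. The 4 H3K27ac libraries were Sox9cKO at E12.5, Sox9null at E11.5, control at E12.5 and control at E11.5, with 1 library each and no replicate, so no difference between conditions was tested. Whole embryonic limb buds are the only tissue the labels give. They give neither the alleles, the Cre driver or the strain, nor the number of embryos, nor whether fore- or hindlimbs were taken. The controls have no stated genotype, and Sox9null occurs only at E11.5 and Sox9cKO only at E12.5, so the kind of deficiency and the stage cannot be told apart. In whole limb buds, acetylation in fewer cells and less acetylation per cell cannot be told apart either.

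H3K27ac is placed by the acetyltransferases CBP and p300 on the histone tail that Polycomb otherwise methylates. Wide stretches of it are known from genes that define a cell type, where many enhancers and the promoter run together into one acetylated block. In the limb bud the genes known for such stretches are those that set the position of cells along the limb axes, among them the Hox genes.

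The names of the deposited files exchange the Sox9cKO and Sox9null libraries relative to the sample titles. The titles decide the group here, and these lists are named with the word labelled for that reason. Tbx5, the gene that specifies the forelimb, differed widely among the lists. Its body carried 31.3 kb of peaks in the list labelled Sox9cKO and none in the list labelled Sox9null, against 2.23 kb in the E12.5 control and 30.3 kb in the E11.5 control. By the titles, Tbx5 therefore divides the lists neither by stage nor by genotype. By the file names, 31.3 kb belongs to Sox9null at E11.5 and no peak to Sox9cKO at E12.5, and Tbx5 then divides the lists by stage. The hindlimb regulator Pitx1 was covered over all 11.1 kb of its body in all 4 lists. Tbx4, its target in the hindlimb, carried 13.4 kb in the list labelled Sox9cKO and 14.4 kb in the list labelled Sox9null, against 14.3 and 13.8 kb in the E12.5 and E11.5 controls. The share of forelimb tissue in each library and the exchange of names were not tested as causes of any difference given here. Sox9 itself carried 3.02 kb of peaks over its body in the list labelled Sox9cKO and 3.10 kb in the list labelled Sox9null, against 4.51 and 5.36 kb in the E12.5 and E11.5 controls. No source used here says which part of Sox9 is deleted, so these values do not check the genotype.

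Of 1005 miRNA hairpins in the RefSeq table (build GRCm38.p6), 21 lay at least in part in a domain, in 18 domains. The mature sequences shown are those whose domains the results return to, with the seed (bases 2 to 8) in capitals. The first 2 pairs share a seed within each pair and come from separate domains, in the Hoxc and Hoxa clusters and in the dynamin genes Dnm3 and Dnm1.
miR-196a-5p, chr15:102973365-102973386, plus strand: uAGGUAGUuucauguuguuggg
miR-196b-5p, chr6:52230129-52230150, minus strand: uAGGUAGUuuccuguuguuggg
miR-199a-3p, chr1:162217883-162217904, plus strand: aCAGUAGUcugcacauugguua
miR-199b-3p, chr2:32318524-32318545, plus strand: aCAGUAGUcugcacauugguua
miR-214-3p, chr1:162223438-162223459, plus strand: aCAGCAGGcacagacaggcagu
miR-140-3p, chr8:107551288-107551308, plus strand: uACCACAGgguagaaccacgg
miR-483-5p, chr7:142654968-142654989, minus strand: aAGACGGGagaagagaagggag
miR-322-5p, chrX:53054306-53054327, minus strand: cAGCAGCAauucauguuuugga

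Promoter sequence was matched by gene identifier to RefSeq (build GRCm38.p6) for 17492 of 21887 protein-coding genes. The 250 bases before the start are shown for 3 genes whose start lay in a domain, chosen because they differ widely in CG content and because the first was acetylated unequally among the lists. CG dinucleotides are in capitals.
Foxc1, chr13:31806396-31806645, plus strand: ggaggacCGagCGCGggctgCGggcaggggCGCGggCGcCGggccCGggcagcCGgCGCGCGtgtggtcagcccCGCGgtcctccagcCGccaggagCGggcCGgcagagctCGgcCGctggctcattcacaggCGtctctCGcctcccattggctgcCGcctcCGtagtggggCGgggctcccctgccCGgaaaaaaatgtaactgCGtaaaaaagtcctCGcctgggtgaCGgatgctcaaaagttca
Lmx1b, chr2:33641099-33641348, minus strand: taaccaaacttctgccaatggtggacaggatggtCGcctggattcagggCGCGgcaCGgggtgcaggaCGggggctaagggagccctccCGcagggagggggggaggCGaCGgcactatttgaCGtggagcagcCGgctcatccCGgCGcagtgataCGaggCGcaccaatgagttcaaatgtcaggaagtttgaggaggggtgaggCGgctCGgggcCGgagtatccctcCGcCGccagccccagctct
Prrx1, chr1:163313651-163313900, minus strand: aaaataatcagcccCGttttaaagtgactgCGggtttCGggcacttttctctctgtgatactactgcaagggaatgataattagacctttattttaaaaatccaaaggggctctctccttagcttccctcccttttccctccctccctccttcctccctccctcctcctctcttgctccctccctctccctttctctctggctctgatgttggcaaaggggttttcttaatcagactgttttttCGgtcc
Foxc1, a forkhead regulator of skeletal development, had 29 CG in these bases, Lmx1b, which makes the dorsal side of the limb, 19, and Prrx1, a homeobox gene of limb mesenchyme, 4. The 250 bases of Lmx1b and Prrx1 were covered by peaks throughout in all 4 lists. At Foxc1 all 250 bases were covered in the list labelled Sox9cKO and 70 in the list labelled Sox9null, against 250 in each control.

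Peaks of 5000 bp or wider were a small share of every list, and they were more frequent in the E12.5 than in the E11.5 control. There were 590 of them among 36937 peaks in the list labelled Sox9cKO, 928 of 28419 in the list labelled Sox9null, 1079 of 32821 in the E12.5 control and 375 of 36045 in the E11.5 control. They took 7.15, 11.7, 12.1 and 5.25% of the covered length of these lists, in the same order. Wide peaks also stood high in the score that the authors' caller gave each peak, a value used here only to rank peaks within a list. With tied scores given their mean rank, the median percent rank of wide peaks was 95.8 in the list labelled Sox9cKO and 95.8 in the list labelled Sox9null. It was 95.3 in the E12.5 control and 97.4 in the E11.5 control. Many peaks tied at a score of 3100, which makes the top ranks coarse. They were 2772 and 702 in the lists labelled Sox9cKO and Sox9null, against 1325 and 1588 in the E12.5 and E11.5 controls. The depth in reads is unknown, and peak width moves with it.

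The domains lay in a larger share of the genes that pattern the limb than of the cartilage matrix genes. Of 21887 protein-coding genes, 756 had at least 1 bp of the gene body in a domain, which is 3.45%. Of the 44 limb patterning genes listed, 29 did, as did 13 of 20 HoxA and HoxD genes. These 13 Hox genes are neighbours that lay in only 2 domains, so they are not 13 separate cases. Signalling genes of the BMP and TGF-beta families and of the joint followed with 12 of 25, regulators of chondrogenesis with 14 of 30, and tendon and connective tissue genes with 9 of 22. Of the cartilage matrix genes 3 of 26 were overlapped, and of the housekeeping genes 2 of 20, the actin gene Actb and the RNA-binding Hnrnpa2b1, both shares above that of all genes. The lists differ in gene length, and domains overlapped 7.88% of the longest of 5 length groups of genes and between 2.15 and 2.72% of the other groups. The gene lists were chosen with earlier results of these data known, so their counts are a description.

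**Figure D1:**
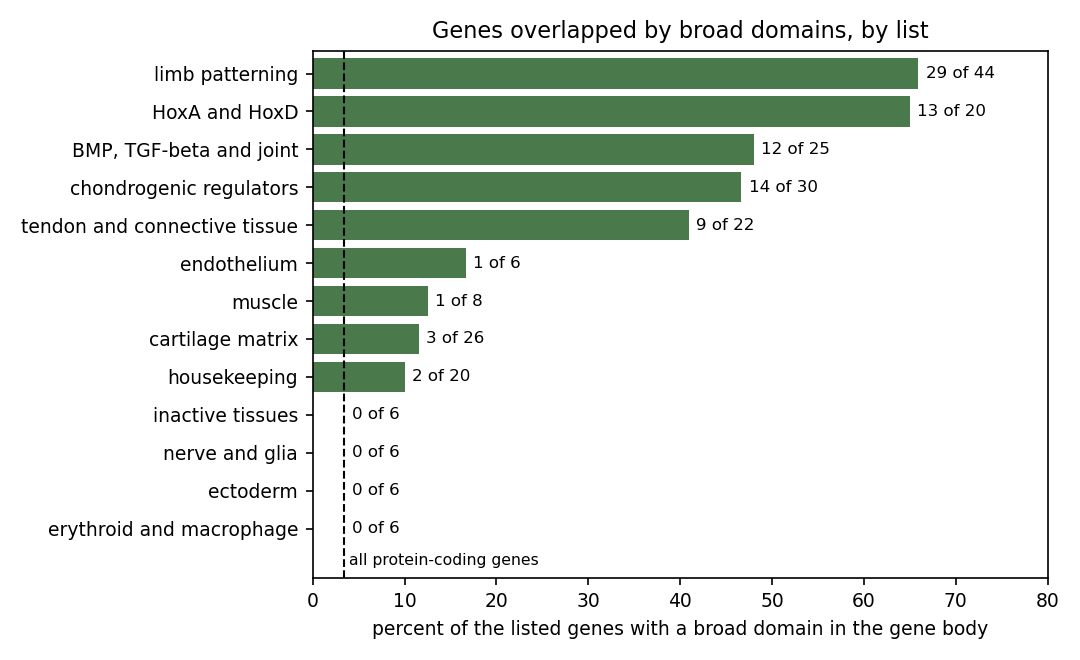
Percent of the genes of each list with a broad domain in the gene body (bars, with counts beside them); the dashed line is the share of all protein-coding genes, 3.45%. Limb patterning genes (29 of 44) and HoxA and HoxD genes (13 of 20) stand at the top, and 4 lists of 6 genes each have no member overlapped. The 13 Hox genes lie in only 2 domains.

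Few markers of other tissues were listed, so their counts say little beside the 3.45% of all genes. None of the 6 genes listed for erythroid cells and macrophages, for ectoderm, for nerve and glia or for inactive tissues was overlapped. Of the muscle genes 1 of 8 was overlapped, the troponin gene Tnnt3, and of the endothelial genes 1 of 6, Erg, which is also known from the joint and from cartilage. Tnnt3 lies beside Lsp1 and Mrpl23 in a run of 9 domains on chr7:142453702-142580940. These domains were covered to 81.9% in the list labelled Sox9cKO and 96.4% in the list labelled Sox9null, against 99.2 and 76.0% in the E12.5 and E11.5 controls.

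The widest domain of all covered the HoxA cluster from Hoxa5 to Hoxa13 and 25.6% of the annotated body of Hoxa3, in the cluster whose genes define the segments of the limb from shoulder to digit. It spanned 67733 bp at chr6:52201782-52269514. Peaks covered 66.7 kb of it in the list labelled Sox9cKO and 65.6 kb in the list labelled Sox9null, against 66.5 kb in the E12.5 control and 66.7 kb in the E11.5 control. The HoxD domain, from Evx2 and Hoxd13 to Hoxd9 at chr2:74648094-74701332, was covered over 47.3 and 51.2 kb in the lists labelled Sox9cKO and Sox9null, against 53.0 and 46.7 kb in the E12.5 and E11.5 controls. Another Hox domain held Hoxc9, Hoxc10 and Hoxc11, genes known from the hindlimb, at chr15:102944729-102978894. Its widest peak measured 38.4 kb in the list labelled Sox9cKO and 27.5 kb in the list labelled Sox9null, against 26.5 and 25.4 kb in the E12.5 and E11.5 controls, so it was wider in both deficient lists. No HoxB gene of 10 was overlapped. The hairpins of miR-196b and miR-196a-2, whose shared seed is shown above, lie in the HoxA and HoxC domains and were covered throughout in all 4 lists.

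Most domains at other patterning genes were nearly filled in every list. The 32 domains at limb patterning genes had a median covered share of 98.1% in the list labelled Sox9cKO and 93.6% in the list labelled Sox9null, against 100 and 94.6% in the E12.5 and E11.5 controls. Over all 1103 domains the same medians were 85.1 and 93.9%, against 100 and 77.5%. A total of 22 of the 32 carried a 5000 bp peak in all 4 lists, where 305 of all 1103 domains did. The list labelled Sox9null was under 50% at 4 of them, both domains of Tbx5 and those of Alx4 and Irx5. The E12.5 control was under 50% at 3, both domains of Tbx5 and that of Sall3, and the E11.5 control at 1, in Zfhx4. Lmx1b held one of the longest, 23965 bp, with widest peaks of 22.1 and 22.4 kb in the lists labelled Sox9cKO and Sox9null, against 24.0 and 18.2 kb in the E12.5 and E11.5 controls. Hand2, which sets up the posterior limb bud, had widest peaks of 18.4 and 27.3 kb in the lists labelled Sox9cKO and Sox9null, against 18.9 and 15.4 kb in the E12.5 and E11.5 controls. At the Shox2 domain, named for a regulator of the upper limb segment, they measured 16656 and 13981 bp, against 15498 and 12569 bp. These 3 domains were wide in every list.

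**Figure D2:**
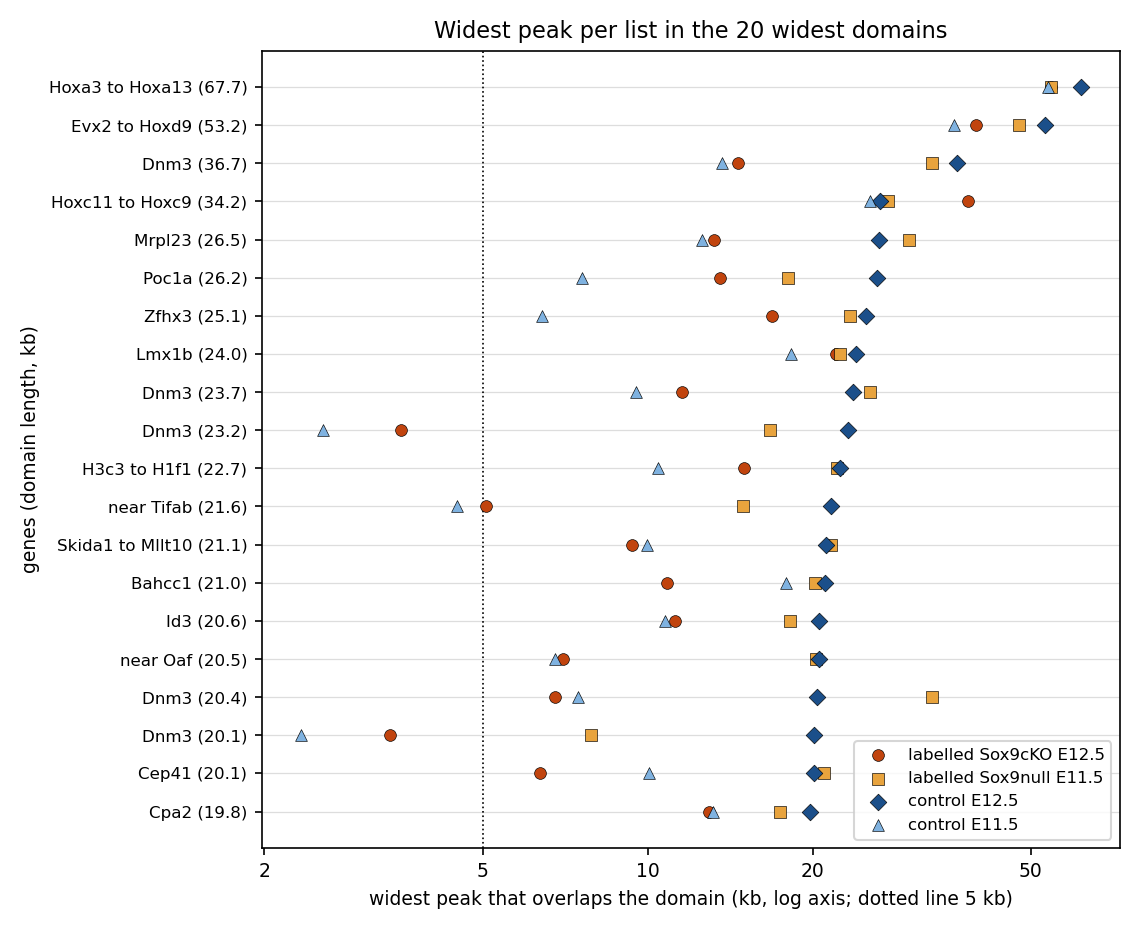
Widest peak (kb, log axis) that overlaps each of the 20 widest domains, by list; the dotted line marks the 5 kb minimum and the domain length stands beside the genes. The E11.5 control has the narrowest of the 4 peaks at 15 of these domains, and the HoxA, HoxD and HoxC domains lie above 25 kb in every list.

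The T-box genes Tbx2 and Tbx3, repressors at the limb margins, and the bHLH gene Twist1, which maintains limb mesenchyme, had peaks over 5000 bp in all 4 lists. At Tbx2 the widest peak measured 16046 and 16417 bp in the lists labelled Sox9cKO and Sox9null, against 16329 and 6822 bp in the E12.5 and E11.5 controls. Covered length at Tbx2 differed less, with 16046 and 16329 bp, against 16329 and 15601 bp, since the E11.5 control held the same stretch in several peaks. Gli3, the transcription factor of Hedgehog signalling that shapes digit number, had widest peaks of 7265 and 8411 bp in the lists labelled Sox9cKO and Sox9null, against 7403 and 7823 bp in the E12.5 and E11.5 controls. The Hedgehog receptor gene Ptch1 had 12705 and 7952 bp, against 8482 and 7762 bp. Neither gene separated the deficient lists from the controls. Msx2, a homeobox gene downstream of BMP signals, had a widest peak of 3465 bp in the list labelled Sox9cKO and 11329 bp in the list labelled Sox9null, against 5724 bp in the E12.5 control and 4325 bp in the E11.5 control.

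Meis1 and Meis2, homeobox genes of the proximal limb, had the wider peak at E11.5, while Shox2, given above, had it at E12.5. Meis1 had a widest peak of 9549 bp in the list labelled Sox9cKO and 7308 bp in the list labelled Sox9null, against 4159 bp in the E12.5 control and 8323 bp in the E11.5 control. Meis2 had 12053 and 6300 bp in the lists labelled Sox9cKO and Sox9null, against 8938 and 10170 bp in the E12.5 and E11.5 controls. Both were widest in the list labelled Sox9cKO, and both were wider in the E11.5 than in the E12.5 control. The E11.5 control alone supplied the Meis1 domain, so the rule fixed its order between the controls. Covered length at Meis1 differed less, since the E12.5 control held the stretch in 2 peaks. It was 8323 and 7308 bp in the lists labelled Sox9cKO and Sox9null, against 7058 and 8323 bp in the E12.5 and E11.5 controls. Irx5, an Iroquois gene of the anterior limb, was covered over 6557 and 3013 bp in the lists labelled Sox9cKO and Sox9null, against 6594 and 6264 bp in the E12.5 and E11.5 controls.

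The domain at Sox9 was narrower in both deficient lists than in both controls. It spanned 8770 bp at chr11:112777951-112786720, across one end of the gene. The widest peak measured 3976 bp in the list labelled Sox9cKO and 5528 bp in the list labelled Sox9null, against 8770 bp in the E12.5 control and 5828 bp in the E11.5 control. Covered length was 4.31 and 5.94 kb in the lists labelled Sox9cKO and Sox9null, against 8.77 and 6.67 kb in the E12.5 and E11.5 controls. The widest peaks of the list labelled Sox9null and of the E11.5 control were close, and with 1 library each no replicate error can be set against the difference.

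The Sox9 partners Sox5 and Sox6, which act with it on cartilage genes, held 1 and 2 domains inside their gene bodies. In the Sox5 domain the covered length was 3.95 and 4.95 kb in the lists labelled Sox9cKO and Sox9null, against 6.18 and 3.79 kb in the E12.5 and E11.5 controls. The wider Sox6 domain, 10842 bp at chr7:116029716-116040557, was covered over 4.68 and 6.35 kb, against 10.8 and 7.42 kb, and the other, 6384 bp, over 1.48 and 4.77 kb, against 6.38 and 3.34 kb. Both Sox6 domains were therefore shortest in the list labelled Sox9cKO and longest in the E12.5 control, and the wider one was less covered in both deficient lists than in both controls. The widest peak at Foxc1 was also narrower in both deficient lists. It measured 3480 and 2355 bp in the lists labelled Sox9cKO and Sox9null, against 6992 and 3533 bp in the E12.5 and E11.5 controls. The list labelled Sox9cKO and the E11.5 control were close. Covered length at Foxc1 did not keep this order, with 5408 and 2355 bp, against 6992 and 5020 bp.

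Across the 20 domains at chondrogenic regulators the covered share had medians of 76.5 and 86.3% in the lists labelled Sox9cKO and Sox9null, against 100 and 71.1% in the E12.5 and E11.5 controls. Each median lay below that over all domains, apart from the 100% of the E12.5 control, from which most of these domains were chosen. The E12.5 control had the wider peak of both controls in all 20, and in 1027 of all 1103 domains, which the rule chose by these widths. Trps1, a repressor that shapes growth plates, held 2 domains, and the longer was covered over 6675 and 8106 bp in the lists labelled Sox9cKO and Sox9null, against 9886 and 6969 bp in the E12.5 and E11.5 controls. Zbtb20, a repressor needed for late chondrocyte differentiation, had 4143 and 6774 bp, against 6774 and 4130 bp. At Zbtb20 the list labelled Sox9cKO lay close to the E11.5 control, while in the list labelled Sox9null the domain was as full as in the E12.5 control. Sox4 and Sox11, SoxC factors of mesenchymal progenitors, filled their domains more evenly. Sox11 was covered over 8.96 and 9.78 kb in the lists labelled Sox9cKO and Sox9null, against 9.82 and 7.93 kb in the E12.5 and E11.5 controls. Nfib, a nuclear factor I gene, had 2 domains in its body and another 133387 bp away, which had no peak in the list labelled Sox9cKO and 2.64 kb in the list labelled Sox9null, against 6.53 kb in the E12.5 control and no peak in the E11.5 control.

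Among cartilage matrix genes the domains lay in Col2a1, Wwp2 and Cspg4, and they split into a stable and a variable set. Col2a1, the type II collagen gene of cartilage, held 2 domains of 5228 and 5279 bp. Their widest peaks were 5177 and 4691 bp in the list labelled Sox9cKO and 5020 and 4886 bp in the list labelled Sox9null, against 5066 and 5279 bp in the E12.5 control and 5114 and 4820 bp in the E11.5 control. All 8 widths lay between 4691 and 5279 bp. Other cartilage matrix genes of the list, 23 of 26, had no domain in their body.

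Wwp2, a ubiquitin ligase gene that carries the cartilage miRNA miR-140 in an intron, had 3 domains with much larger differences. The widest spanned 10991 bp at chr8:107463851-107474841, a single peak in the E12.5 control, and was covered over 4198 and 6598 bp in the lists labelled Sox9cKO and Sox9null, against 10991 and 5325 bp in the E12.5 and E11.5 controls. The domain that ends beside miR-140, chr8:107543186-107551352, was covered over 1.54 and 4.90 kb in the lists labelled Sox9cKO and Sox9null, against 8.17 and 5.12 kb in the E12.5 and E11.5 controls. The remaining domain had 3.61 and 4.59 kb, against 5.19 and 3.27 kb. The list labelled Sox9cKO was below the E12.5 control at all 3 and below the E11.5 control at 2 of them. The miR-140 hairpin lay 39 bp inside the end of its domain and was covered in the E12.5 control alone, with no base under a peak in the list labelled Sox9cKO, the list labelled Sox9null or the E11.5 control.

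Cspg4, the gene of the proteoglycan NG2, held a domain of 5007 bp at chr9:56878733-56883739. Its peaks covered 783 bp in the list labelled Sox9cKO and none in the list labelled Sox9null, against 5007 bp in the E12.5 control and 3046 bp, in 3 peaks, in the E11.5 control. It was the only domain at a listed cartilage matrix gene under 50% covered in both deficient lists, and its covered length was lower in both deficient lists than in both controls. The domain lies just above the width minimum.

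**Figure D3:**
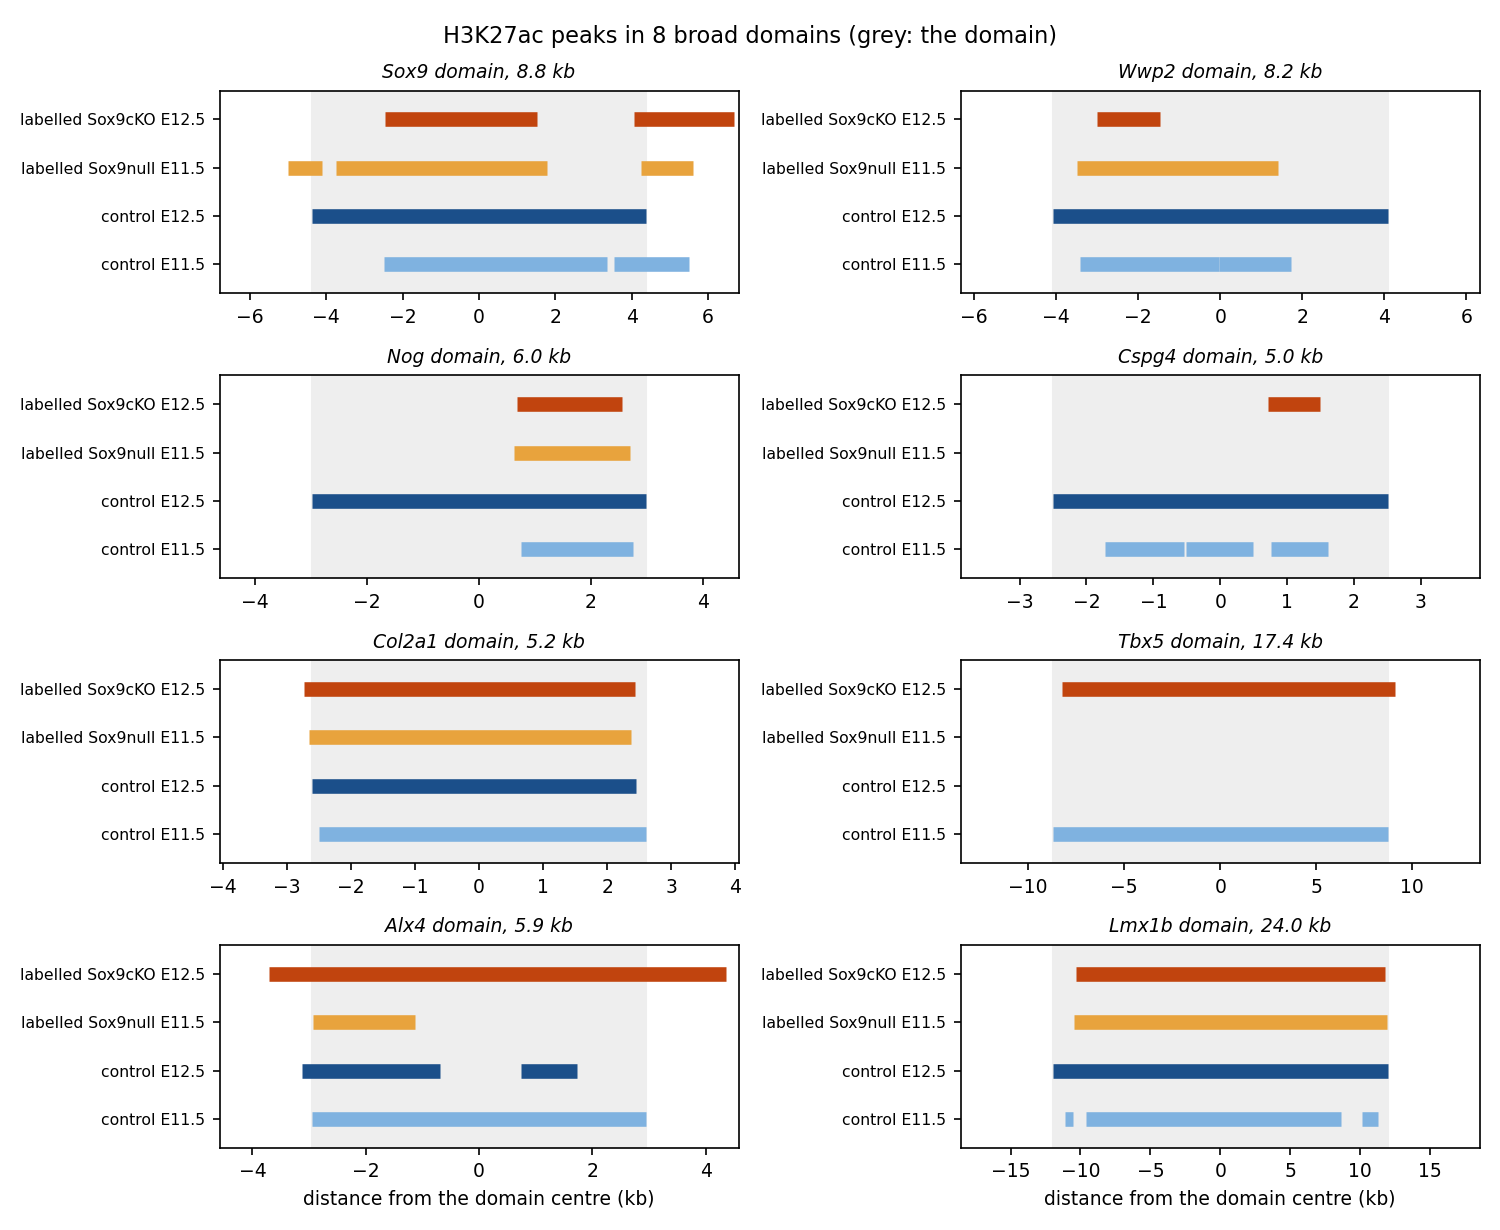
H3K27ac peaks (bars) of the 4 lists in 8 domains, by distance from the domain centre (kb); grey marks the domain. The Sox9, Wwp2, Nog and Cspg4 domains are filled in the E12.5 control alone, Col2a1 and Lmx1b are nearly filled in every list, and Tbx5 and Alx4 are filled in the list labelled Sox9cKO and the E11.5 control.

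The genes listed for BMP and TGF-beta signalling and for the joint, Wnt5a, Osr2 and Erg among them, held 13 domains. Median covered shares were 93.6 and 94.0% in the lists labelled Sox9cKO and Sox9null, against 100 and 79.6% in the E12.5 and E11.5 controls. The targets Id1, Id2 and Id3, inhibitors of bHLH factors, and the ligand gene Bmp4 were wide in every list. Id3 held the longest, 20581 bp, with widest peaks of 11.2 and 18.2 kb in the lists labelled Sox9cKO and Sox9null, against 20.6 and 10.8 kb in the E12.5 and E11.5 controls. Nog, the gene of the BMP antagonist Noggin that is expressed in cartilage condensations, was under 50% in both deficient lists. Peaks covered 1890 and 2071 bp of its 5981 bp in the lists labelled Sox9cKO and Sox9null, against 5981 and 2004 bp in the E12.5 and E11.5 controls. Both deficient lists therefore lay near the E11.5 control, and the E12.5 control stood apart from all 3. Smad6 and Smad7, inhibitors of BMP and TGF-beta signalling, kept a 5000 bp peak in every list at 1 domain each, and Wnt5a, a ligand of limb outgrowth, had widest peaks of 14130 and 12631 bp in the lists labelled Sox9cKO and Sox9null, against 17989 and 10971 bp in the E12.5 and E11.5 controls. Osr2, a zinc finger gene of the joint, was covered over 7047 and 3587 bp, against 7047 and 5557 bp. Erg was covered over 0.803 and 2.70 kb of 5321 bp in the lists labelled Sox9cKO and Sox9null, against 5.32 and 0.870 kb in the E12.5 and E11.5 controls.

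Tendon and connective tissue genes held 12 domains, each with a wider peak in the E12.5 than in the E11.5 control. So had 1027 of all 1103 domains, which the rule chose by these widths. They included Scx, the basic helix-loop-helix factor of tendon progenitors, the homeobox gene Mkx, and the collagen genes Col1a2, Col3a1 and Col12a1. Scx was covered over 10.6 and 10.4 kb of 11061 bp in the lists labelled Sox9cKO and Sox9null, against 11.1 and 10.7 kb in the E12.5 and E11.5 controls. Its domain was nearly full in all lists. Col3a1, the type III collagen gene, was covered over 5084 and 6838 bp of 7094 bp, against 7094 and 4960 bp, and Col1a2 over 4193 and 5021 bp of 5867 bp, against 5867 and 3674 bp. In both collagen genes the E12.5 control was highest and the E11.5 control lowest. Tcf4, a broadly expressed bHLH gene that is not specific to connective tissue, was also counted in this list and held 4 domains. The longest was covered over 8688 and 9765 bp of 9903 bp in the lists labelled Sox9cKO and Sox9null. The E12.5 and E11.5 controls had 9903 and 9278 bp. None of the 12 fell under 50% in any list.

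The gene with the most domain length was in none of the gene lists. Dnm3, a dynamin gene whose body also carries the miR-199a-2 and miR-214 hairpins on the opposite strand, held 15 domains with 207 kb of its 496 kb body. Peaks covered 122 kb of that in the list labelled Sox9cKO and 198 kb in the list labelled Sox9null, against 207 kb in the E12.5 control and 109 kb in the E11.5 control. Both hairpins lay in the same 23705 bp domain, which was covered over 20000 and 23705 bp in the lists labelled Sox9cKO and Sox9null, against 23705 and 15277 bp in the E12.5 and E11.5 controls, and both were covered throughout in every list. The miR-199b hairpin, with the same mature 3p sequence as miR-199a, lay in a domain of Dnm1 that was at least 91.2% covered in all 4 lists. Behind Dnm3 came Mecom with 69.3 kb in 9 domains, Rad51b with 45.4 kb, Usp29 with 45.1 kb, Aopep with 45.0 kb, Slc14a2 with 43.4 kb, Jazf1 with 41.6 kb and Creb5 with 38.1 kb. The bodies of these 8 genes measured between 237 and 558 kb.

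Some domains lay in groups. Within 50 kb of another domain lay 459 of the 1103 (41.6%), in 164 groups of between 2 and 15. After Dnm3 the largest groups held 10 domains at Cep41, the carboxypeptidase A genes and the imprinted gene Mest on chromosome 6, the 9 at Lsp1, Tnnt3 and Mrpl23, and 9 on chr9:41803211-41954769 near Gm40514. In each of these 4 groups covered length was lowest in the E11.5 control and highest in the E12.5 control, with the list labelled Sox9null above the list labelled Sox9cKO. In the group near Gm40514 it was 45.4 and 59.7 kb in the lists labelled Sox9cKO and Sox9null, against 64.6 and 34.5 kb in the E12.5 and E11.5 controls.

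Between the stages, the domains were wider at E12.5 in most cases. The widest peak of a domain had a median of 6280 bp in the E12.5 control and 3846 bp in the E11.5 control, with a median difference of 2929 bp. Of the 1083 domains marked in both controls, 1010 (93.3%) had the wider peak at E12.5, where 76.2% of 22342 other regions did. A peak at least 2 times as wide at E12.5 was found at 452 of them (41.7%), where 13.4% of other regions had one. The rule used these widths, and the E12.5 control supplied 742 domains alone, so neither share is a result about the members. Covered length over the whole lists was itself 1.28 times as large at E12.5. After scaling each list to its total, the median difference of covered length was 33.7 bp, with 564 domains higher and 539 lower at E12.5.

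**Figure D4:**
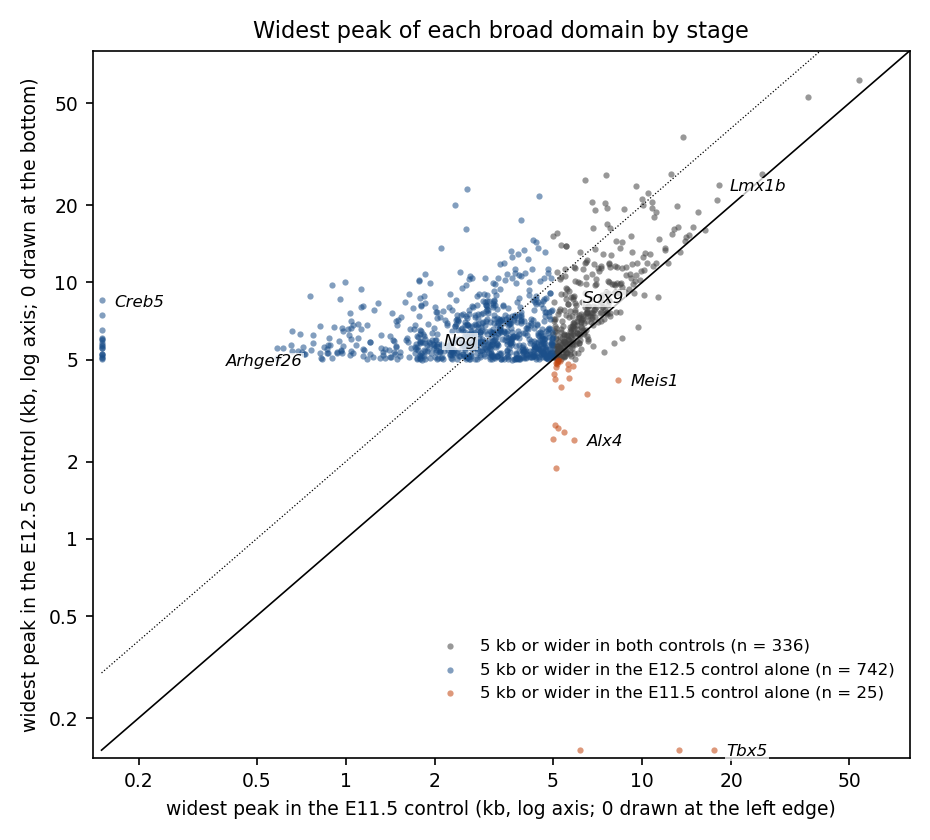
Widest peak (kb, log axes) of each of the 1103 domains in the E12.5 control against the E11.5 control; the solid line marks equal widths and the dotted line 2 times the E11.5 width, and a missing peak is drawn at the edge. Most domains lie above the solid line, and both Tbx5 domains lie at the bottom edge.

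The largest gains in covered length at E12.5 were in Dnm3, which supplied 6 of the 10 largest. The others were in Creb5, in Usp29, near Zfhx3 and in the gene desert beside the HoxD cluster, 293576 bp from Atp5g3. The Creb5 domain of 8516 bp was covered over 2.34 and 7.34 kb in the lists labelled Sox9cKO and Sox9null, against 8.52 kb in the E12.5 control and no peak in the E11.5 control. Creb5 is a bZIP factor known from articular cartilage. Over its 6 domains the covered share was 39.9 and 86.6% in the lists labelled Sox9cKO and Sox9null, against 100 and 9.21% in the E12.5 and E11.5 controls. The domain near Atp5g3 had 2.60 and 9.87 kb in the lists labelled Sox9cKO and Sox9null, against 10.1 and 0.996 kb in the E12.5 and E11.5 controls. In covered length the list labelled Sox9null lay nearer to the E12.5 than to the E11.5 control at each of these 10 domains.

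Losses at E12.5 were fewer, and both domains of Tbx5 led them. These were covered over 13.2 and 17.0 kb in the list labelled Sox9cKO and had no peak in the list labelled Sox9null, against no peak in the E12.5 control and 13.3 and 17.4 kb in the E11.5 control. The next largest loss, chr17:39842843-39849037, had the same pattern, with 6131 bp in the list labelled Sox9cKO and no peak in the list labelled Sox9null, against no peak in the E12.5 control and 6195 bp in the E11.5 control. It holds Rn18s-rs5, a copy related to ribosomal RNA, where reads of many copies may be placed, so its values are uncertain. Alx4, a homeobox gene of the anterior limb bud, was covered over 5910 and 1803 bp in the lists labelled Sox9cKO and Sox9null, against 3241 and 5910 bp in the E12.5 and E11.5 controls. For Sall3, a zinc finger gene, the lengths were 5.01 and 2.54 kb in the lists labelled Sox9cKO and Sox9null, against 2.45 and 5.02 kb in the E12.5 and E11.5 controls. Igf2, Mef2d, Zc3h4, Car14 and Ptprg completed the list. At all 10 the list labelled Sox9cKO was covered over more length than the list labelled Sox9null, as the E11.5 control was over more than the E12.5 control.

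The Igf2 domain, over the imprinted growth factor gene, also holds the miR-483 hairpin shown above. This hairpin was covered throughout in the list labelled Sox9cKO and not at all in the list labelled Sox9null, against no base in the E12.5 control and all bases in the E11.5 control. The miR-322 and miR-503 hairpins on the X chromosome lay in a gap of the E11.5 control, which covered neither. In the list labelled Sox9cKO and in the E12.5 control both were covered throughout, and in the list labelled Sox9null miR-322 was covered over 61.1% and miR-503 not at all.

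Of the 25 domains that the E11.5 control alone supplied, 20 carried a 5000 bp peak in the list labelled Sox9cKO and 5 in the list labelled Sox9null. Besides the genes above they included, named after their values were seen, Trim71 and Lin28b, genes of early embryonic cells that act on the let-7 pathway. At Trim71 the widest peak was 6275 and 4745 bp in the lists labelled Sox9cKO and Sox9null, against 4575 and 5609 bp in the E12.5 and E11.5 controls. At Lin28b it was 4936 and 4885 bp, against 4931 and 5293 bp. The differences at Lin28b are small beside its width. In total these 25 domains were covered to 95.3 and 63.2% in the lists labelled Sox9cKO and Sox9null, against 63.4 and 100% in the E12.5 and E11.5 controls. These totals include 3 domains with no peak in the list labelled Sox9null or the E12.5 control, both of Tbx5 and that of Rn18s-rs5. The medians over the 25 were 96.9 and 86.2%, against 84.5 and 100%. In total the 742 domains from the E12.5 control alone had 70.0 and 88.5%, against 100 and 62.0%, and the 336 from both controls 91.1 and 94.9%, against 98.7 and 87.3%.

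The Sox9-deficient lists kept most of the domain length. Summed over all domains, peaks covered 78.8% in the list labelled Sox9cKO and 90.6% in the list labelled Sox9null, against 98.8 and 72.7% in the E12.5 and E11.5 controls. Over the other control regions the same total shares were 63.9 and 65.5%, against 84.8 and 66.6%. The controls chose the domains, so a control not used for the choice is the fairer measure beside the deficient lists. Of the length of the 1079 wide peaks of the E12.5 control, 78.5% was covered in the list labelled Sox9cKO and 91.4% in the list labelled Sox9null, against 72.0% in the E11.5 control. Of the 375 wide peaks of the E11.5 control, 98.0 and 95.7% were covered, against 96.3% in the E12.5 control. In 3 of these 4 cases the deficient list was covered to a larger share than the unused control, and in the other, 95.7 against 96.3%, to a slightly smaller one. The unused control is of the other stage, and the shares were not scaled to the total covered length of each list. That length was 60.4 and 59.7 Mb in the lists labelled Sox9cKO and Sox9null, against 66.7 and 52.0 Mb in the E12.5 and E11.5 controls. Turned round, the 1033 domains built by the same rule from the deficient lists were covered to 93.0% in the E12.5 control and 75.7% in the E11.5 control. A domain of the deficient lists overlapped 818 of the 1103 control domains (74.2%), and a control domain overlapped 816 of the 1033 (79.0%).

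**Figure D5:**
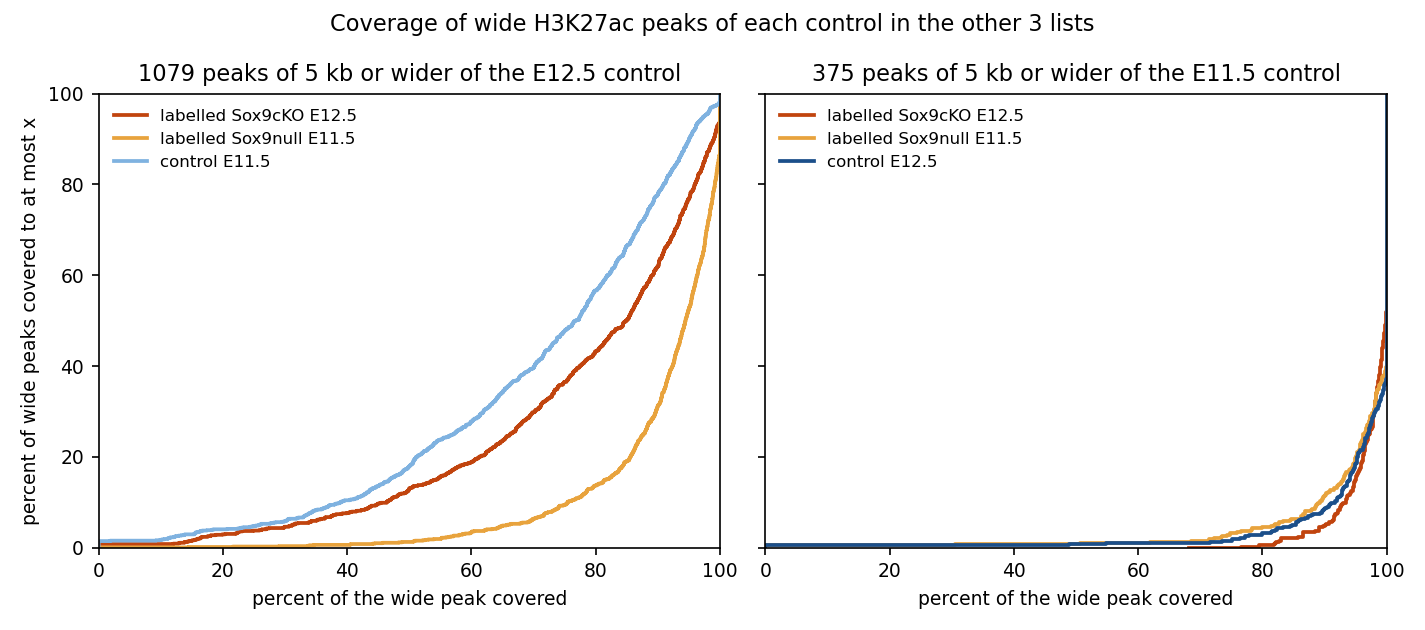
Cumulative percent of the wide peaks of the E12.5 control (left, n = 1079) and of the E11.5 control (right, n = 375) covered to at most the percent on the horizontal axis, in the 3 lists not used to choose them. On the left the E11.5 control lies lowest in coverage and the list labelled Sox9null highest, and on the right all 3 lists cover nearly every peak.

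By widest peak, each deficient list lay nearer to the control of the other labelled stage at most domains. The list labelled Sox9cKO was nearer to the E11.5 control at 785 domains and to the E12.5 control at 317. The list labelled Sox9null was nearer to the E12.5 control at 769 and to the E11.5 control at 333. Over the 41516 other regions these counts were 23900 and 17596 for the list labelled Sox9cKO, and 25882 and 15609 for the list labelled Sox9null. The rule used the control widths, so the counts over domains are a description and not a result about the members. A 5000 bp peak was present at 493 domains in the list labelled Sox9cKO and at 775 in the list labelled Sox9null, against 1078 and 361 in the E12.5 and E11.5 controls. The E12.5 control shared its wide peak with the list labelled Sox9null alone at 306 domains and with the list labelled Sox9cKO alone at 22. It was the only list with one at 274.

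Long domains were mostly wide in every list. Of the 147 domains of at least 10 kb, 100 had a 5000 bp peak in all 4 lists, and 10 were under 50% covered in at least 1 deficient list. The 20 widest took 548 kb and were covered to 86.6 and 96.0% in the lists labelled Sox9cKO and Sox9null, against 99.6 and 81.0% in the E12.5 and E11.5 controls. A longer stretch passes a fixed width more easily, so this describes the domains and tests nothing.

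Few domains were poorly covered in both deficient lists. Under 50% were 141 in the list labelled Sox9cKO and 19 in the list labelled Sox9null, against 4 in the E12.5 control and 194 in the E11.5 control. Both deficient lists were under 50% at 12 domains, where 28.8% of the 41516 other regions were. Other regions were shorter, with a median of 1445 bp against 6363 bp. Of the 11939 of them under 50%, 10320 had no peak in either deficient list, so the shares are not like for like. All 12 domains came from the E12.5 control alone, and the E11.5 control was under 50% at 8 of them as well. Besides Nog and Cspg4 these domains, some named after their values were seen, lay in Arhgef26, Rpgrip1l, Poc1a, Pitpnc1, Aopep and Eif3h, and near Noct, Nfib, Axin2 and Smoc2. Axin2, a target and inhibitor of Wnt signalling, was 129717 bp from its domain, which had no peak in the list labelled Sox9cKO and 723 bp in the list labelled Sox9null, against 5005 bp in the E12.5 control and no peak in the E11.5 control. Arhgef26, a guanine nucleotide exchange factor gene, was the only one with no peak in either deficient list, against 5005 bp in the E12.5 control and 93 bp in the E11.5 control.

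Widths outside the range of both controls were uncommon. Of the 1078 domains marked in all 4 lists, the widest peak was narrower in both deficient lists at 36 (3.34%), where 6.18% of 18992 other regions were, and wider in both at 65 (6.03%), where 18.6% of other regions were. The controls were chosen for wide peaks, which lowers the count of wider ones. Counting unmarked domains, 38 were narrower, 23 of them wide in both controls, and besides Sox9, Foxc1 and Cspg4 they included, named after their values were seen, Dusp6, Igf2r, Tcf7l1, Unc5c and Zfp423. Dusp6, the feedback phosphatase of FGF signalling, had widest peaks of 10711 and 10522 bp in the lists labelled Sox9cKO and Sox9null, against 11553 and 10910 bp in the E12.5 and E11.5 controls. At Dusp6, as at Foxc1 (3480 and 3533 bp), the list labelled Sox9cKO lay close to the E11.5 control. Among the domains wider in both deficient lists were those in Dab2ip, Arid1b and Ednra, near Sulf2 and near Dlk1, an imprinted inhibitor of adipocyte differentiation. Near Dlk1 the widest peaks were 9.19 and 8.81 kb in the lists labelled Sox9cKO and Sox9null, against 8.03 and 3.86 kb in the E12.5 and E11.5 controls.

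Compared with other acetylated regions, domains touched the end of a protein-coding gene more often. They did so at 407 of 1103 (36.9%), lay inside a gene body at 357 and between genes at 339, where 24.2% of other regions touched a gene end. Domains had a median length of 6363 bp and other regions 1445 bp, and a longer stretch holds a gene end more easily. Lengths were not matched, so these shares are a description. Domains at gene ends were more fully covered in every list not used to choose most of them. Their total covered share was 89.2 and 92.5% in the lists labelled Sox9cKO and Sox9null, against 98.3 and 84.8% in the E12.5 and E11.5 controls. For domains between genes it was 70.6 and 90.2%, against 99.4 and 63.2%. The list labelled Sox9cKO and the E11.5 control thus differed more between these places than the other lists did. Of the domains between genes the farthest lay 574085 bp from a gene, Bcl11a. The X chromosome held 3 domains (0.272%), in or near Gpc3 and Plac1, where it held 1.85% of other regions.

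Starts of 385 genes lay in a domain, 2.2% of the 17492 with a start in the table. Their 494 promoter windows, 250 bases before to 50 after the start, had a median of 19.5 CG and 62.0% GC. Windows in other control peaks had 22 CG and 62.0% GC, and windows in no control peak 3 CG and 48.3% GC. The letters ACAATG or ACAAAG, the core recognised by SOX factors, were searched on both strands and occurred in 21.3% of the domain windows, 18.1% of windows in other control peaks, 35.1% of windows in no peak and 25.7% of all windows. The Foxc1, Lmx1b and Prrx1 bases shown above held neither.

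Values just at the width minimum show what the limit separated. In the E12.5 control the narrowest peaks kept were at Pbld2 (5000 bp), Aopep (5001 bp) and Arhgef26 (5005 bp), and the widest left out were at Fjx1 (4996 bp), Cdkal1 (4994 bp) and Mus81 (4989 bp). In the E11.5 control they were at Gja1 (5006 bp), near Llph (5007 bp) and at Tns3 (5008 bp), against Efna5 (4999 bp), Asb4 (4997 bp) and near Anapc13 (4993 bp).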

How the data were processed

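H3K27ac ChIP-seq peak lists of 4 mouse limb bud libraries were used, and 20 other libraries of the series were not analysed here. The authors deposited 1 list per library, with a score per peak from their peak caller, on mm10 per the submitters' processing notes, which also name CASAVA 1.8 and deepTools. For the aligner, the caller's version and settings and the use of input, the sources used here give nothing, and the depth in reads is unknown. Peaks of at least 5000 bp in either control were merged where they shared 1 bp, and the widest overlapping peak, the covered length and the percent covered were taken for each list, so 1 peak can count at 2 neighbouring domains. The score served only to rank peaks within a list. Genes came from RefSeq (GRCm38.p6), whose primary coordinates are those of mm10, and a gene counted as overlapped from 1 bp of its body. Other regions are merged control peaks with no 5000 bp peak. Interval code was checked on simulated peaks. Named were members of the gene lists, the 20 widest domains, the 15 genes with the most domain length, the 10 largest stage gains and losses, the 10 lowest and the 10 widest fully covered domains in the deficient lists, up to 10 wider in both deficient lists, and the threshold edges. Names outside these were chosen after their values were seen, which holds for the miRNA hairpins and the domain groups. Some results are not reported here. The members and lists were chosen with earlier results of these data known. Python 3.11.15, numpy 2.4.6, pandas 2.3.3 and matplotlib 3.10.9 were used.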

Additional observations from a re-analysis of the deposited data

Results flagged for a closer look

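The stage difference had opposite signs in the deficient lists, taken by label, and in the controls. The median over domains of percent covered, E12.5 minus E11.5, was -7.55 percentage points in the Sox9-deficient lists and 22.4 in the controls. Covered length was lower in the list labelled Sox9cKO than in the list labelled Sox9null and higher in the E12.5 than in the E11.5 control at 821 of 1103 domains, and the reverse held at 56. The E12.5 control alone supplied 742 domains, so the sign in the controls follows in large part from the rule. By widest peak, the list labelled Sox9cKO was narrower than the list labelled Sox9null at 868 domains and wider at 234. Over the 41516 other regions these counts were 16054 and 15125. Both domains of Tbx5 also differed in sign, with 30.2 kb in the deficient lists by label and -30.8 kb in the controls. With 1 library per group these differences were not tested. The exchanged file names, the kind of deficiency and the share of forelimb tissue cannot be told apart here.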

How the results depend on the processing

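The 5000 bp minimum gave 1103 domains, medians of 85.14% covered in the list labelled Sox9cKO and 93.88% in the list labelled Sox9null, a stage difference of 2929 bp, 12 domains under 50% in both deficient lists and 756 genes. A minimum of 4000 bp gave 2108 domains, 93.07% in the list labelled Sox9null, 1991 bp, 22 domains and 1341 genes. With 7500 bp there were 326 domains, 87.21 and 95.92%, 4584 bp, 0 domains under 50% and 260 genes. The upper 50% of each list by score gave 80.86 and 93.07%, with 35 domains under 50%. Domains from the E11.5 control alone numbered 375, with 99.86 and 100%, 939 bp, 0 under 50% and 363 genes. An alternative added after seeing the data, an equal number of the widest peaks from each control, gave 534 domains, 92.1 and 95.97%, 2474 bp, 1 under 50% and 442 genes. Exchanging the deficient lists exchanges their medians, 93.88 for the list labelled Sox9cKO and 85.14 for the list labelled Sox9null. Fewer or more peaks enter under each of the other settings by construction. Merging across 1000 bp, autosomes alone, domains from the E12.5 control alone and other gene overlap rules left every value close to its main value, and none reversed. The order of total coverage (E12.5 control, list labelled Sox9null, list labelled Sox9cKO, E11.5 control) held in the settings above other than the E11.5 control alone and the exchange, which by construction exchanges the totals of the deficient lists. No paired analysis was possible because each group has 1 library. Width depends on depth and on the caller, and both are unknown.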

Other observations

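Replication-dependent histone genes, which are active in dividing cells, lay in domains at 47 of 64, where 3.45% of all protein-coding genes did, a family chosen after values were seen. Their 13 domains on 141 kb were covered to 92.9% in the list labelled Sox9cKO and 98.5% in the list labelled Sox9null, against 99.8 and 86.4% in the E12.5 and E11.5 controls, and 11 carried a 5000 bp peak in all 4 lists. Near-identical copies make the placement of reads among these genes uncertain. Imprinted genes, likewise chosen after values were seen, were overlapped at 9 of 30, beside the same 3.45%. Their 14 domains were covered to 79.1 and 89.2% in the lists labelled Sox9cKO and Sox9null, against 96.7 and 71.5% in the E12.5 and E11.5 controls.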
